A study of Homo sapiens with 6 samples.

Results

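A20, the product of TNFAIP3, and 9 further negative regulators of NF-κB signalling were examined in U251 cells exposed to tumor necrosis factor-α (TNF-α). U251 is an established human glioblastoma cell line. The 10 genes were taken by name as known brakes of the pathway, with earlier results of these data known, from the 58735 genes of the expression table: TNFAIP3, TNIP1, TNIP2, TNIP3, CYLD, OTULIN, ZC3H12A, ZFP36, OPTN and ITCH. Of these, 9 were among the 12136 genes with enough expression to be tested, and TNIP3 was not. RNA-seq had been performed on 6 libraries from U251 cells, for which the labels give no genetic modification in either group. The NC group (3 libraries) received sterile deionized water, and the TNF-α group (3 libraries) received recombinant human TNF-α at 10 ng/mL, and both were kept in culture for 24 h. The labels describe the 3 libraries of each group as independent biological replicates. The comparison asks how these genes responded to the cytokine, in a single cell line at a single dose and time.

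TNF-α activates NF-κB through chains of ubiquitin that are built on signalling proteins near the receptor and serve as platforms for the kinases that release NF-κB from its inhibitors. The brakes act at successive steps. A20 and its binding partners of the TNIP (ABIN) family, the deubiquitinases CYLD and OTULIN, the ubiquitin-binding adaptor optineurin (OPTN) and the ubiquitin ligase ITCH act on or compete for these chains, whereas the RNA-binding proteins ZC3H12A (Regnase-1) and ZFP36 (tristetraprolin) destroy the inflammatory mRNAs that NF-κB induces. Several of these genes are themselves known targets of NF-κB and so form negative feedback loops.

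The sequences around the transcription starts are shown first, because the kappaB consensus, the sequence that NF-κB dimers bind, is the element through which such feedback is known to run. RefSeq promoters on GRCh38.p14 cover 250 bases before to 50 bases from each start, and 16 promoters matched the 10 genes. The consensus has 10 positions and was searched on both strands, with overlapping matches merged. Of the 16 promoters, 8 (50%) held a match, compared with 11.3% of all 35116 promoters. Promoters of the same gene are not independent, and starts 1 and 2 of OPTN share the same match. The genes were also chosen as known brakes, so the shares are a description and not a test. Promoters of genes with a significant increase after TNF-α, 91 from 59 genes, held a match in 29 cases (31.9%). The windows below run 5′ to 3′ on the strand of the gene, from 100 bases before the start and for 20 bases from it, with matches in capitals. They show the genes on which the results turn, including ZC3H12A, whose promoter held no match.
TNFAIP3, chr6:137867159-137867278, plus strand: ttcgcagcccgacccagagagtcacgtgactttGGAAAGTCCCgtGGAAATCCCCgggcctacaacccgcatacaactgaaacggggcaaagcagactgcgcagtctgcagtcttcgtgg
TNIP1, start 2, chr5:151081015-151081134, minus strand: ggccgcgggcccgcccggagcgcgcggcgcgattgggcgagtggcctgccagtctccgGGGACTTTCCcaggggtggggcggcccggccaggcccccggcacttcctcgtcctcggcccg
OPTN, start 1, chr10:13099982-13100101, plus strand: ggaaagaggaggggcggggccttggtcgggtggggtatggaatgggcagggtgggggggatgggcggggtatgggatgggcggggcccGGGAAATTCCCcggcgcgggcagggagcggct
TNIP3, start 1, chr4:121227464-121227583, minus strand: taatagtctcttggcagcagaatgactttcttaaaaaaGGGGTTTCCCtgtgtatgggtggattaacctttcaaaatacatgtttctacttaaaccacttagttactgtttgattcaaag
TNIP3, start 3, chr4:121164302-121164421, minus strand: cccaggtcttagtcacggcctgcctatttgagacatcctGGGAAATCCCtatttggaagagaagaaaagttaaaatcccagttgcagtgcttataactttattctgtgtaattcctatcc
ZC3H12A, chr1:37474480-37474599, plus strand: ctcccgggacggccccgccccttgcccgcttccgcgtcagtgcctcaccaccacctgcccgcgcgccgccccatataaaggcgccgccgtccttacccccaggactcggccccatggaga

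TNFAIP3 held 2 matches, at −67 to −58 and at −55 to −46 relative to the start at 0. A pair of matches was present in 0.985% of all promoters. TNIP1 held a match at −42 to −33 at its start 2 and none at its start 1. In OPTN, 2 overlapping matches on opposite strands formed a stretch of 11 bases at −12 to −2 from start 1, and the same stretch lay at −93 to −83 from start 2. TNIP3 had matches at −62 to −53 from start 1 and at −61 to −52 from start 3, and CYLD at −189 to −180 from start 2 and at 0 to 9 from start 3. The windows of TNIP2, OTULIN, ZC3H12A, ZFP36 and ITCH held none. A match describes the letters of the window only, and binding was not measured.

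**Figure D1:**
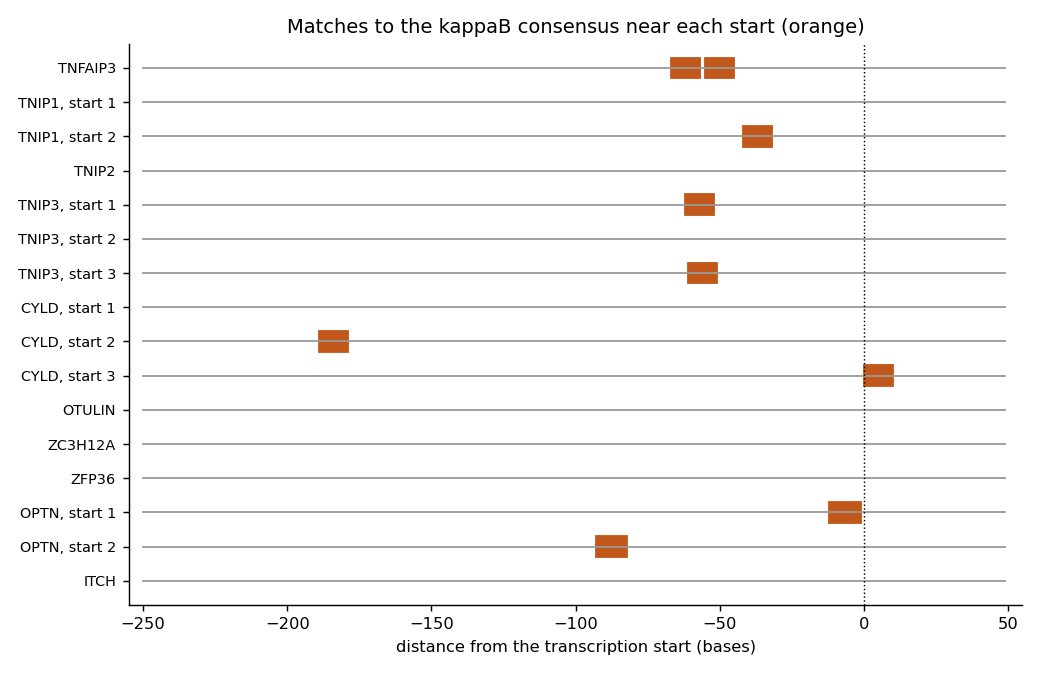
Matches to the kappaB consensus (orange blocks) in the 16 RefSeq promoters of the 10 genes, with the distance from the transcription start in bases on the horizontal axis and the start as a dotted line. In TNFAIP3, TNIP1, OPTN and TNIP3 the matches lie within 100 bases before a start, and 5 genes have none.

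The libraries held between 31992167 and 37897044 reads in genes. TNF-α replicates 2 and 3 stood apart from the other 4 libraries. Genes with more than 8 kb of exon made up 16.6% and 17.9% of all reads there, compared with 28.8% to 29.1% for the NC libraries and TNF-α replicate 1, and ribosomal protein genes took 7.30% and 6.26%, against 2.62% to 2.90%. Gene length and GC content together accounted for 34.1% and 33.0% of the variance of the log2 ratios to the NC mean in these libraries and for 1.27% in TNF-α replicate 1. Results are therefore also given for TNF-α replicate 1 alone, for replicates 2 and 3 alone, and after a correction for length and GC. In the fit of replicates 2 and 3 alone, 79.4% of all genes tested had an adjusted p under 0.05 in limma. A small adjusted p from that fit therefore says little about a single gene, here and for each brake below. With replicate 1 alone the treated group has a single library, which is assumed to vary like the NC libraries, so these p-values rest on the NC spread only. Among markers of the glial line, VIM was at 325 to 362 FPKM in NC and 434 to 974 in the TNF-α group (adjusted p = 0.195), CD44 at 133 to 136 and 136 to 141, SOX2 at 58.9 to 66.3 and 22.6 to 57.8 (adjusted p = 0.195), and NES at 41.1 to 44.4 and 40.8 to 69.2. GFAP was at 7.10 to 9.47 FPKM in NC and lower, at 1.58 to 2.60, in the TNF-α group (adjusted p = 0.0210, limma), and S100B did not exceed 0.168. The part of these shifts in the results below was not tested. The 5 leukocyte markers reported were below 1 FPKM in every library, with sums of 0.181 to 0.332 in NC and 0.120 to 0.142 in the TNF-α group and with PTPRC and CD3E at 0. The 3 endothelial markers summed to 0.126 to 0.173 and 0.210 to 0.342, the 2 epithelial markers reached at most 0.0595, and of the 3 neuronal markers 1 passed the expression filter.

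After TNF-α, TNFAIP3, TNIP1 and ZC3H12A rose, and none of the 9 tested genes fell. On the log2(FPKM + 1) scale the increases were 2.70 for TNFAIP3, 2.70 for TNIP1 and 1.34 for ZC3H12A, and OPTN, at 1.51, lay just outside the threshold. FPKM is the number of fragments per kilobase of gene scaled to library size, and genes with an adjusted p under 0.05 in limma, over all genes tested, counted as changed. Thus 3 of 9 genes increased, while 0.717% of all tested genes increased (87 genes) and 1.01% changed in either direction. Higher mean values were seen for 7 of the 9 and lower values for 2, with a median log2 fold change of 0.97. The corresponding median over all 12136 genes was 0.04, with 6432 higher and 5704 lower. In 6 of the 9 genes every TNF-α library was above every NC library, an arrangement found for 14.8% of all genes. In these bulk libraries, a change in the share of cells expressing a gene and a change in RNA per cell cannot be told apart.

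**Figure D2:**
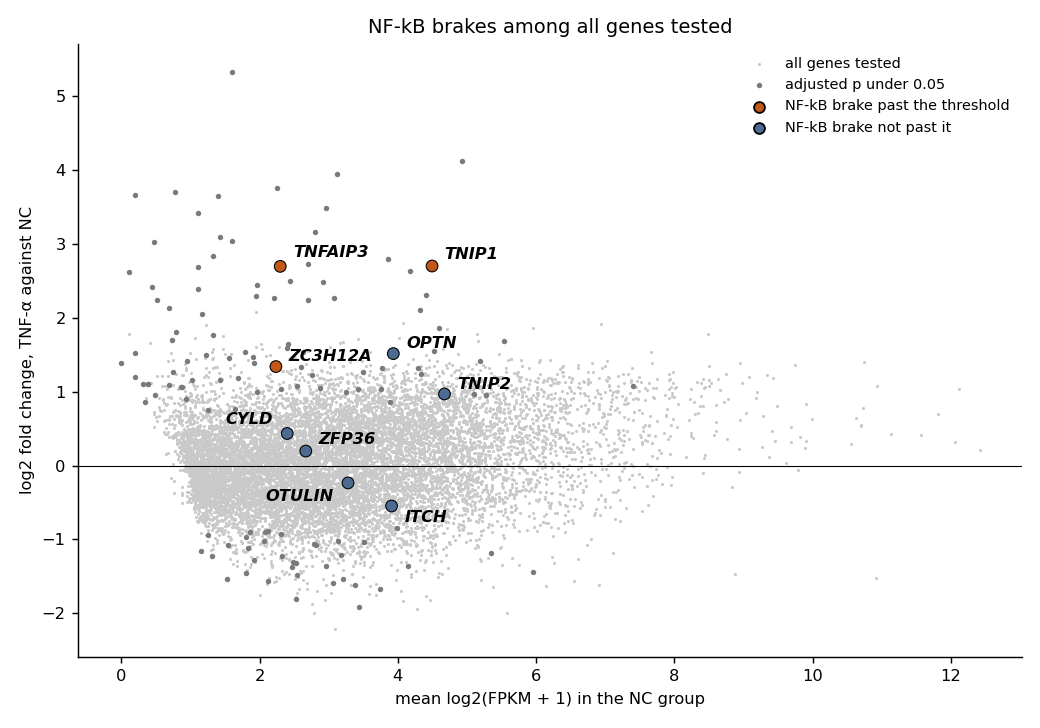
Log2 fold change after TNF-α (vertical axis) against the mean log2(FPKM + 1) in the NC group (horizontal axis), for all genes tested (light grey), genes with an adjusted p under 0.05 (dark grey) and the 9 tested NF-κB brakes (large points). TNFAIP3, TNIP1 and ZC3H12A (orange) passed the threshold, TNFAIP3 and TNIP1 near 2.70, and the other brakes (blue) range from −0.55 for ITCH to 1.51 for OPTN.

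TNFAIP3 encodes A20, which edits and removes ubiquitin chains on signalling proteins downstream of the TNF receptor. The gene (ENSG00000118503) lies at chr6:137867188-137883312 on the plus strand of GRCh38. Its level was 4.14, 3.44 and 4.22 FPKM in NC replicates 1 to 3 and 57.6, 18.9 and 26.8 FPKM in TNF-α replicates 1 to 3. All TNF-α libraries were above all NC libraries, and replicate 1 was the highest. The group means were 3.93 ± 0.428 and 34.4 ± 20.5 FPKM (SD, n = 3 each), a ratio of 8.76. The log2 fold change was 2.70 (SE 0.39, 95% confidence interval 1.76 to 3.64, adjusted p = 0.0421 by limma), which ranked the gene 18 among all tested by fold change. The exact two-sided permutation test gave p = 0.1, the smallest that 3 against 3 libraries allow. The individual TNF-α libraries stood at 14.7, 4.80 and 6.82 times the NC mean. These values rest on 570 to 755 reads in NC and 2470 to 9355 reads in the TNF-α group. The increase was 3.57 on the log2 scale with TNF-α replicate 1 alone (adjusted p = 4.4e-05, from the NC spread only), 2.26 with replicates 2 and 3 alone (adjusted p = 1.5e-05) and 2.62 after correction for length and GC (adjusted p = 0.0360, limma). The direction was kept in all 19 alternative analyses, with adjusted p-values from 1.5e-05 to 0.276, and the threshold was passed in 8 of them. Leaving out a single library lost the call in 4 cases, with adjusted p-values in limma of 0.236, 0.276 and 0.249 after removal of NC replicates 1, 2 and 3 in turn and of 0.205 after removal of TNF-α replicate 3. An antisense transcript, AL357060.1, overlaps 1.88% of the exonic length of TNFAIP3 and was at 0.102 to 0.183 FPKM in NC and 0.373 to 0.563 in the TNF-α group. The use of strand in counting was not stated, so reads of the overlap cannot be assigned.

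The genes whose profile over the 6 libraries lay closest to that of TNFAIP3 were BIRC3, ESM1 and TNFRSF9, with Euclidean distances of 0.764, 0.991 and 1.02 on log2(FPKM + 1) values relative to the NC mean. BIRC3 encodes cIAP2, a ubiquitin ligase of the TNF receptor complex, and was at 28.7, 16.8 and 17.3 FPKM in TNF-α replicates 1 to 3 after 2.80 to 3.06 in NC. ESM1, a secreted proteoglycan, and TNFRSF9, the receptor 4-1BB, were likewise highest in TNF-α replicate 1, at 30.1 and 7.72 FPKM. The 3 genes were picked for their likeness over the same 6 libraries, so the shared peak follows from the choice. TNFRSF9, at 0.303 to 0.446 FPKM in NC, passed the expression filter only through the TNF-α group. Of the 87 genes with an increase, 22 (25.3%) were highest in that replicate, TNFAIP3 and BIRC3 among them.

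TNIP1 encodes ABIN-1, which binds ubiquitin chains and recruits A20 to them. The gene (ENSG00000145901) lies at chr5:151029945-151093577 on the minus strand. Its level was 20.5, 20.5 and 23.7 FPKM in NC replicates 1 to 3 and reached 100.5, 191 and 160 FPKM after TNF-α. The groups did not overlap, and here replicate 1 was the lowest of the treated libraries. Means were 21.6 ± 1.82 and 151 ± 46.1 FPKM (SD, n = 3 each), a ratio of 6.98. The log2 fold change was 2.70 (SE 0.26, interval 2.08 to 3.33, adjusted p = 0.0112, limma), rank 17 of all genes tested. It was 2.17 with TNF-α replicate 1 alone (adjusted p = 0.00019), 2.97 with replicates 2 and 3 alone (adjusted p = 5.9e-06) and 2.43 after length and GC correction (adjusted p = 0.00084, limma). Over the 19 alternatives the increase lay between 2.17 and 2.97 and passed the threshold in 14. The adjusted p in limma rose to 0.112, 0.125 and 0.112 on removal of NC replicates 1, 2 and 3 in turn, and to 0.101 on removal of TNF-α replicate 3.

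TNIP2 encodes ABIN-2, a further A20-binding protein that also stabilises the kinase TPL2. The gene (ENSG00000168884, chr4:2741648-2756376, minus strand) had the highest level of the 10 in NC, at 25.1, 23.9 and 24.6 FPKM. The TNF-α libraries had 29.1, 67.0 and 59.9 FPKM. All exceeded the NC libraries, replicate 1 by little and replicates 2 and 3 by more. Means were 24.5 ± 0.572 and 52.0 ± 20.2 FPKM (SD, n = 3 each), and the log2 fold change of 0.97 (SE 0.32, interval 0.20 to 1.74) did not pass the threshold (adjusted p = 0.195, limma). The log2 ratio was 0.24 in replicate 1 and 1.41 and 1.26 in replicates 2 and 3, where 1.07 and 0.88 were fitted from the length and GC of the gene. After the correction the fold change was 0.32 (adjusted p = 0.133, limma). With replicates 2 and 3 alone TNIP2 passed (1.33, adjusted p = 1.1e-05, limma), in a fit in which 79.4% of all genes passed in either direction.

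TNIP3, which encodes ABIN-3, was barely expressed. The gene (ENSG00000050730) lies at chr4:121131408-121227466 on the minus strand. Its level was 0.0220, 0.0566 and 0 FPKM in NC and 0.454, 0.348 and 0.383 FPKM in the TNF-α group, values that rest on 3, 7 and 0 reads and on 55, 34 and 35 reads. Every treated library was above every control library. Summed over libraries and corrected for library size, 10 reads in NC against 124 gave a ratio of 15.2, with an exact 95% interval of 8.0 to 32.5 that covers counting error only. A count of 3 reads corresponds to 0.0220 to 0.0328 FPKM in this gene. Because it stayed below the expression filter of 1 FPKM, TNIP3 was tested only in the analysis without the filter, where the log2 fold change was 0.44 with an adjusted p of 0.0781 (limma).

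**Figure D3:**
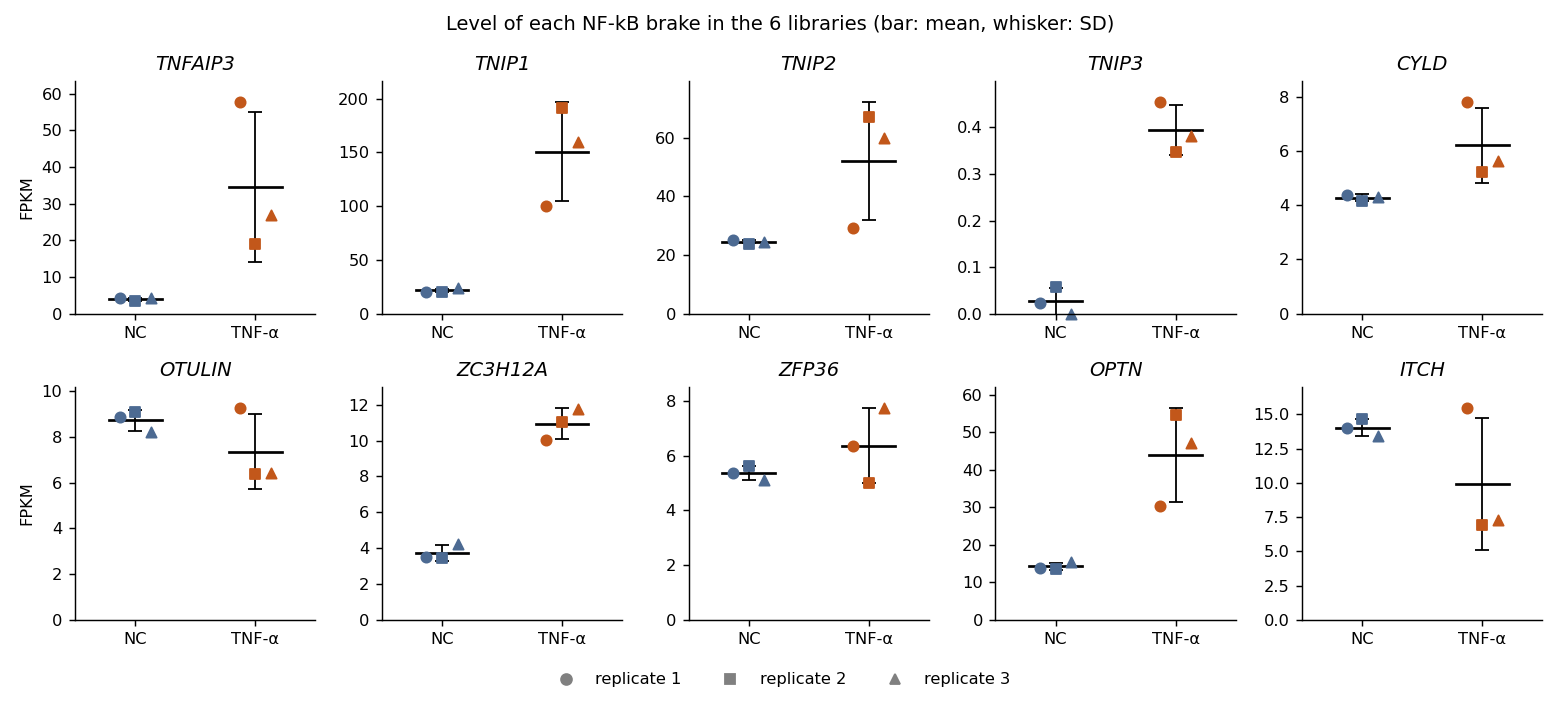
FPKM of the 10 NF-κB brakes in the 3 NC libraries (blue) and the 3 TNF-α libraries (orange), each panel with its own linear axis from 0. Bars and whiskers show mean and SD (the lower NC whisker of TNIP3 is cut at 0). The treated libraries lie above the controls in 7 panels, and the ranges overlap in OTULIN, ZFP36 and ITCH.

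The deubiquitinases CYLD and OTULIN did not pass the threshold with 6 libraries. CYLD, a tumor suppressor that removes K63-linked and linear chains, lies at chr16:50742050-50801935 on the plus strand (ENSG00000083799). It was at 4.38, 4.15 and 4.29 FPKM in NC and 7.79, 5.22 and 5.62 FPKM after TNF-α. The groups did not overlap and replicate 1 was the highest. A log2 fold change of 0.43 was obtained (SE 0.16, interval 0.04 to 0.83, adjusted p = 0.195, limma). CYLD has 12954 bases of exon, and for a gene of its length and GC content log2 ratios of −0.75 and −0.70 were fitted in TNF-α replicates 2 and 3, against measured ratios of 0.24 and 0.33. The fold change was 0.74 with replicate 1 alone (adjusted p = 0.0055) and 0.90 after the correction (adjusted p = 0.0247, limma), both past the threshold. With replicate 1 alone, where the treated library has no replicate, 5 of the 9 brakes passed as higher, against 3.70% of all genes, and after the correction 4 of the 9, against 1.27%.

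OTULIN, which cleaves linear chains only, lies at chr5:14664664-14699711 on the plus strand (ENSG00000154124). Its level was 8.86, 9.07 and 8.21 FPKM in NC and 9.24, 6.38 and 6.43 FPKM in the TNF-α group. Replicate 1 lay above the NC libraries and replicates 2 and 3 below them. OTULIN had a log2 fold change of −0.23 (SE 0.17, interval −0.64 to 0.17, adjusted p = 0.302, limma). With replicates 2 and 3 alone it was −0.39 and passed the threshold (adjusted p = 0.0015, limma), where −0.54 and −0.51 were fitted from length and GC. Its sign changed to 0.08 with replicate 1 alone and to 0.11 after length and GC correction.

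ITCH, a HECT-type ubiquitin ligase that acts with A20 in a complex, showed the same arrangement of libraries. The gene (ENSG00000078747) lies at chr20:34363235-34511393 on the plus strand. Its level was 14.0, 14.7 and 13.4 FPKM in NC and 15.4, 6.94 and 7.31 FPKM after TNF-α. The treated libraries thus lay on either side of the controls. ITCH had a log2 fold change of −0.55 (SE 0.29, interval −1.26 to 0.16, adjusted p = 0.212, limma), and it was 0.13 with replicate 1 alone. With TNF-α replicates 2 and 3 alone, the log2 fold change of ITCH was −0.89 (adjusted p = 2.5e-05, limma), whereas −0.57 and −0.51 were fitted from its length and GC in these libraries.

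OPTN encodes optineurin, which binds ubiquitin chains in competition with the kinase regulator NEMO and also serves as an autophagy receptor. The gene (ENSG00000123240) lies at chr10:13099449-13138308 on the plus strand. It was at 13.9, 13.7 and 15.3 FPKM in NC and at 30.2, 54.5 and 47.1 FPKM after treatment. Every treated library was at least 2.12 times the NC mean. Means were 14.3 ± 0.905 and 43.9 ± 12.4 FPKM (SD, n = 3 each), a ratio of 3.07. With a log2 fold change of 1.51 (SE 0.23, interval 0.95 to 2.08) and an adjusted p of 0.0511 (limma), OPTN lay just outside the threshold, at rank 78 by fold change. It passed in 7 of the 19 alternatives, among them replicate 1 alone (1.03, adjusted p = 0.0023) and the length and GC correction (1.59, adjusted p = 0.0397), and the adjusted p ranged from 9.9e-06 to 0.338. The ratios fitted from length and GC were small in every treated library, from −0.13 to 0.03.

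ZC3H12A encodes Regnase-1, an endoribonuclease that cleaves stem-loops in the mRNAs of inflammatory cytokines. The gene (ENSG00000163874) lies at chr1:37474552-37484379 on the plus strand. Its level was 3.52, 3.44 and 4.21 FPKM in NC and 10.1, 11.0 and 11.8 FPKM in the TNF-α group. The groups were far apart and the treated libraries were close to each other. Means were 3.72 ± 0.423 and 10.9 ± 0.855 FPKM (SD, n = 3 each), a ratio of 2.94. The log2 fold change was 1.34 (SE 0.13, interval 1.02 to 1.65, adjusted p = 0.0116, limma), rank 144. With replicate 1 alone it was 1.23 (adjusted p = 0.0028) and with replicates 2 and 3 alone 1.39 (adjusted p = 1.5e-05). For this gene of 3121 bases, ratios of 1.00 and 0.84 were fitted from length and GC in replicates 2 and 3, but 0.01 in replicate 1, and after the correction the fold change was 0.72 and no longer passed (adjusted p = 0.147, limma). Over all 19 alternatives it lay between 0.72 and 1.53 and passed in 11. The call was lost on removal of NC replicates 1, 2 or 3 (adjusted p = 0.137, 0.139 and 0.0976) and of TNF-α replicates 2 or 3 (adjusted p = 0.0575 and 0.109, limma).

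ZFP36 encodes tristetraprolin, which binds AU-rich elements and recruits the deadenylation machinery. The gene (ENSG00000128016, chr19:39406813-39409412, plus strand) was at 5.36, 5.63 and 5.10 FPKM in NC and at 6.36, 5.01 and 7.72 FPKM after TNF-α. The groups overlapped, since replicate 2 was below all NC libraries. Its log2 fold change was 0.20 (SE 0.17, interval −0.20 to 0.60, adjusted p = 0.372, limma). ZFP36 passed the threshold in none of the 19 alternatives, with adjusted p-values from 0.238 to 0.806. The sign was negative after length and GC correction (−0.34) and on the TPM scale (−0.26), although on the latter the median of all genes moved to −0.42 and ZFP36 lay 0.16 above it.

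**Figure D4:**
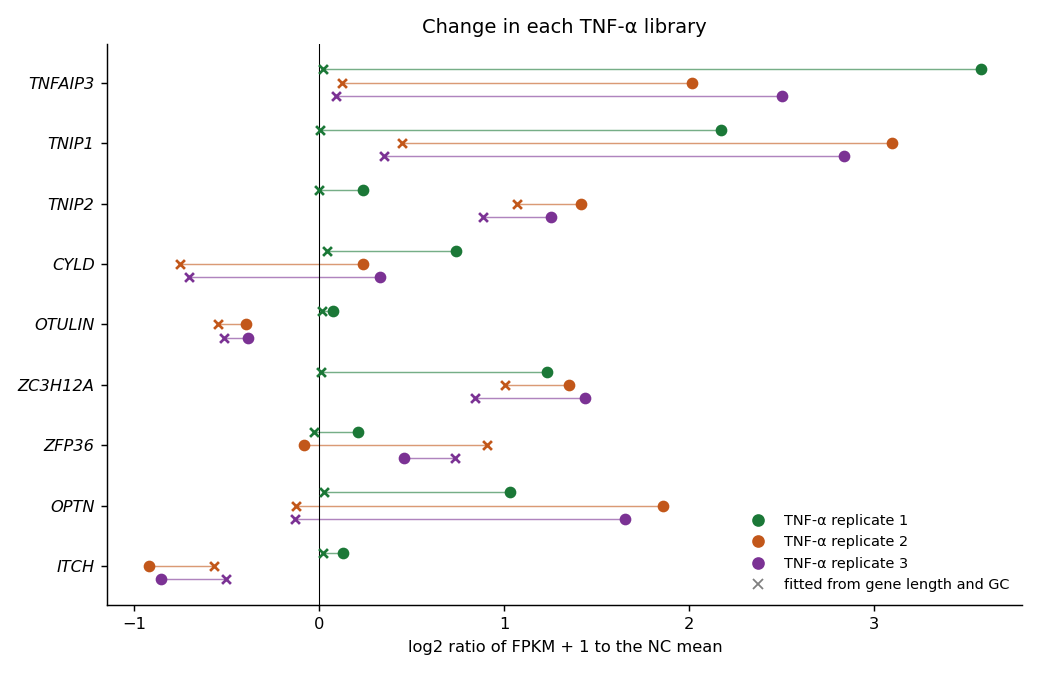
Log2 ratio of FPKM + 1 to the NC mean for the 9 tested brakes in each TNF-α library (dots), with the ratio fitted for a gene of the same length and GC content (crosses of the same color). In TNF-α replicate 1 the fitted values are near 0, whereas in replicates 2 and 3 they reach 1.07 for TNIP2 and −0.75 for CYLD.

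The AU-rich nonamer TTATTTATT, a core binding sequence of ZFP36, was searched in the 3′ untranslated region of the principal transcript of each gene, on the transcript strand. It was present in 2 of the 10 genes, TNFAIP3 and ZFP36, and in 7.51% of 18959 genes. The sites are shown, with the nonamer in capitals and 10 bases on each side, because 1 of these brakes is itself the protein that binds this element.
TNFAIP3, chr6:137882298-137882326, plus strand, GRCh38: gtaattcactTTATTTATTttattacaaa
ZFP36, chr19:39409196-39409224, plus strand, GRCh38: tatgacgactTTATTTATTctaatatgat
Of these transcripts, TNFAIP3 rose and ZFP36 did not pass the test.

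The level order of the brakes changed with treatment. In NC, per gene length, TNIP2 (24.5 FPKM) and TNIP1 (21.6) were highest, followed by OPTN (14.3) and ITCH (14.0), OTULIN (8.71), ZFP36 (5.36), CYLD (4.28), TNFAIP3 (3.93), ZC3H12A (3.72) and TNIP3 (0.0262). The ranges of OPTN and ITCH overlapped, as did those of CYLD with TNFAIP3 and of TNFAIP3 with ZC3H12A. In the TNF-α group TNIP1 (151 FPKM) was above all others in every library. TNIP2 (52.0), OPTN (43.9) and TNFAIP3 (34.4) followed with overlapping ranges, then ZC3H12A (10.9), ITCH (9.90), OTULIN (7.35), ZFP36 (6.37) and CYLD (6.21), whose neighbours also overlapped, and TNIP3 (0.395). By group means TNFAIP3 had thus moved from rank 8 to rank 4. In TNF-α replicate 1 it lay above TNIP2 and OPTN (57.6 against 29.1 and 30.2 FPKM), and in replicates 2 and 3 below both.

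Ratios between brakes within a library, which do not depend on the library size, are given as a description. The FPKM of TNIP1 was 0.820 to 0.963 times that of TNIP2 in NC and 3.46, 2.85 and 2.67 times in TNF-α replicates 1 to 3. The groups were separate, with TNIP1 overtaking its paralog in every treated library. ZC3H12A was at 0.611 to 0.826 times the FPKM of ZFP36 in NC and at 1.58, 2.20 and 1.52 times after TNF-α, again without overlap. The ratio of TNIP1 to TNFAIP3 was 4.96 to 5.97 in NC, but 1.74, 10.1 and 5.97 in TNF-α replicates 1 to 3. The treated libraries lay on both sides of the controls for this ratio. The summed FPKM of the 10 brakes was 98.6 to 103 in NC and 267, 366 and 333 in TNF-α replicates 1 to 3. Over all genes, however, FPKM summed to 256373 to 265942 in NC and to 266716, 463340 and 408175 in TNF-α replicates 1 to 3. The sums of the brakes in replicates 2 and 3 are therefore not directly comparable with those of the other libraries. The share of TNIP1 in the sum of the brakes was 20.6% to 23.0% in NC and 37.7%, 52.2% and 48.1% after TNF-α.

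Related genes of the same steps were examined in hand-made lists. Among 16 tested partners of A20 and of the linear ubiquitin ligase complex, 1 rose, BIRC3 (log2 fold change 2.45, adjusted p = 0.00996, limma), none fell and the median was −0.04. At an unadjusted p under 0.05 in limma there were 8 of the 16. Of the 8 IκB family genes, which encode the cytoplasmic inhibitors of NF-κB, their nuclear relatives and the precursor subunits, 3 rose: NFKBIA by 2.79 (adjusted p = 0.00415), NFKBIE by 2.73 (adjusted p = 0.0202) and NFKB2 by 2.63 (adjusted p = 0.0173). All 8 had positive values, with a median of 1.45, and 7 were at an unadjusted p under 0.05 in limma. In the list of CCCH and stem-loop mRNA decay proteins, the relatives of ZFP36 and ZC3H12A, none of 6 tested genes passed in limma, none had an unadjusted p under 0.05, and the median was −0.22. Likewise 0 of 8 NEDD4-family ligases and adaptors, the relatives of ITCH, passed in limma (2 at an unadjusted p under 0.05), with a median of −0.03. Among 7 partners of OPTN and autophagy receptors 1 rose, IKBKE (1.59, adjusted p = 0.0197, limma), a kinase related to TBK1. In this list 3 were at an unadjusted p under 0.05 in limma, and the median was 0.06. Over all 12136 genes tested the median was 0.04, with 0.717% higher and 1.01% changed in either direction at the threshold. An unadjusted p under 0.05 in limma was found for 2942 of these genes.

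A further hand-made list held 14 transcripts as targets of ZFP36 or ZC3H12A, a status that was not checked for each. Of the 14, 11 were tested and 9 of these rose, against 0.717% of all genes, and none fell. The median log2 fold change of the 11 was 2.83. CSF2, IL1B, TNF and IL6 were below 1 FPKM in every NC library and passed the filter only through the TNF-α group. That these were higher after TNF-α therefore follows from the filter, and they are part of the count and the median. IL6 (0.75, adjusted p = 0.0913) and NFKBIZ (0.38, adjusted p = 0.344, limma) did not pass, and NFKBIZ in TNF-α replicates 2 and 3 lay within the NC range. Below the filter, PTGS2 was at 0.603 to 0.712 FPKM in NC and at 1.09, 0.190 and 0.266 after TNF-α, and CXCL1 and ICOSLG did not exceed 0.0961. CCL2, a monocyte chemokine, rose by 5.33 (adjusted p = 0.00083), CXCL8, a neutrophil chemokine, by 4.12 (adjusted p = 0.0010), CSF2, a myeloid growth factor, by 3.66 (adjusted p = 0.0041) and IER3, an early response gene, by 3.16 (adjusted p = 0.0128, limma for each). CXCL8 shared with TNFAIP3 its highest value in TNF-α replicate 1, at 638 FPKM after 26.5 to 31.6 in NC. mRNA half-lives were not measured, and the part of decay in these levels was not tested.

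**Figure D5:**
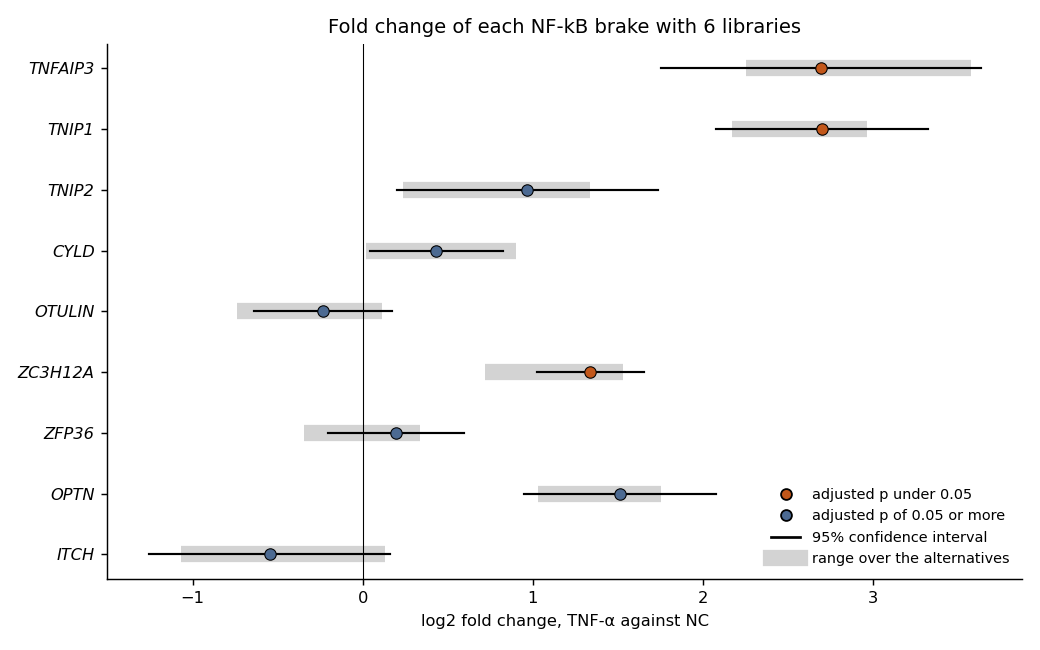
Log2 fold change after TNF-α for the 9 tested brakes (points), with the 95% confidence interval (black line) and the range over the 19 alternative analyses (grey band). TNFAIP3, TNIP1, TNIP2, CYLD, ZC3H12A and OPTN stay above 0 throughout, CYLD with a band that reaches down to 0.017. OTULIN, ITCH and ZFP36 have bands that cross 0.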

How the data were processed

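RNA-seq values of 6 U251 libraries, 3 per group by their titles, were used. The authors deposited FPKM per gene and library without pooling, and 6 further columns match no sample and were not used. The submitters' processing notes name HISAT2 2.0.5, StringTie 1.3.3b, featureCounts 1.5.0 and GATK 3.7. All 58735 genes matched GENCODE release 29 (GRCh38). Whole reads were recovered by dividing FPKM times length by its smallest step in each library, and 100% of values came out whole (tolerance 0.1). A 2 kb gene with 3 reads had 0.0415 to 0.0618 FPKM. Intervals on reads cover counting error only.

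Genes reaching 1 FPKM in 3 or more libraries were tested as log2(FPKM + 1), a scale that understates changes of low genes, with limma 3.58.1 in R 4.3.3 (lmFit, eBayes with trend, two-sided) and Benjamini-Hochberg adjustment over 12136 genes. The procedure was tested on simulated data. For single genes an exact two-sided permutation test of mean log2 values was added. The length and GC correction subtracted a spline fit of each library's log2 ratios. Python 3.11.15 and scipy 1.17.1 were used elsewhere.

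All 10 brakes were described, with the 3 genes nearest to TNFAIP3 and, from each list, up to 4 genes past the threshold by size of change. A further leukocyte marker is not reported here. Members and lists were chosen with earlier results of these data known. In 19 alternatives the filter, pseudocount, scaling, correction, model or libraries were changed, including limma-voom on recovered reads.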

Additional observations from a re-analysis of the deposited data

How the results depend on the processing

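Without TNF-α replicate 1, 8 of the 9 brakes and 9630 genes, 79.4% of all tested, passed. Over the libraries left out in turn, the number of brakes past the threshold ran from 0 to 8 and that of all genes from 10 to 9630. It was 0 brakes on removal of any NC replicate in turn or of TNF-α replicate 3. In each of these fits 4 brakes, and 907 to 1106 of all 12136 genes, were at an unadjusted p under 0.05 in limma. On removal of TNF-α replicate 2, 2 brakes passed, as did 42 of all 12136 genes. TNF-α replicate 1 alone gave 5 brakes and 732 genes. In place of 123 genes, 79 passed with an FPKM minimum of 5, 58 on the TPM scale, 58 without a filter, 185 after quantile normalization and 247 after length and GC correction, and in the other alternatives without a block, all with 6 libraries, between 2 and 4 brakes passed, not always the same ones (TNFAIP3 missed and OPTN passed on the TPM scale, with median centring, with voom and after quantile normalization). The fold change changed sign for OTULIN (0.077 with TNF-α replicate 1 alone, 0.11 after length and GC correction), ITCH (0.13 with replicate 1 alone) and ZFP36 (−0.26 in TPM, −0.34 after correction). The cause was not tested. Deviations of same-numbered libraries correlated at −0.01, −0.18 and 0.12, so the numbers were not taken to pair the libraries, and not every library correlated best with its own number. With replicate number as a block, 24 genes and 0 brakes passed (limma, 5 brakes and 2720 of all genes at an unadjusted p under 0.05). Depth limits TNIP3, with 0 to 7 reads per NC library.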
